A study of Rattus norvegicus with 4 samples.

Results

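The mitochondrial carrier family *Slc25* was examined in RNA sequencing libraries of rat liver. Members were taken as every gene whose symbol begins with *Slc25a* and a digit. The tables held 40 such symbols, and the 32 whose TPM averaged 1 or more across the 4 libraries are described here, out of 9201 genes of any kind at that level. TPM is a transcript level scaled for gene length and for library size, so TPM values can be compared between genes.

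Wild type rats inhaled sevoflurane at 4.5% or desflurane at 6%, both halogenated ethers used for general anesthesia. Each agent had 1 liver library from decapitation as soon as consciousness was lost (0 h, the control, in which the agent was therefore also inhaled briefly) and 1 from decapitation after 6 h of anesthesia. The livers of the 0 h and the 6 h animals were taken 6 h apart in the day, so how long anesthesia lasted and the hour of the day cannot be told apart, and neither can be separated from other differences between libraries. The labels do not give the strain, sex or age of the rats, or whether a library holds 1 animal or several. Each of the 4 groups held 1 library, so a ratio between libraries has no replicate error. Where 4 values are given, the sevoflurane libraries come first (0 h, then 6 h), followed by those of desflurane in the same order.

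Carriers of this family sit mostly in the inner mitochondrial membrane, a barrier that is closed to most ions and metabolites. Each carrier moves a small set of substrates, often by exchanging one for another, and each is built from a tandem repeat of pairs of membrane helices. In liver, such carriers link the cytosolic and mitochondrial steps of the urea cycle, gluconeogenesis, fatty acid oxidation and folate metabolism, and they exchange the ATP made in mitochondria for cytosolic ADP.

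The libraries had the profile of liver. All 8 hepatocyte markers were above a mean TPM of 1, and their summed TPM was between 91288 and 100937. The 5 adipose and muscle markers were each below 0.05 TPM in every library. Red blood cell markers (7 of 9 listed were in the tables) summed to 632 and 1671 TPM with sevoflurane and to 991 and 1864 TPM with desflurane, so they were higher at 6 h with both agents. Summed Kupffer cell markers ranged from 300.4 to 390.3 TPM, endothelial markers from 44.4 to 55.04, bile duct markers from 6.61 to 8.08 and stellate cell markers from 21.2 to 22.9. From coverage and FPKM, the sevoflurane 0 h library held 3.50 Gb of aligned bases and the other libraries between 5.29 and 5.57 Gb. In bulk tissue, fewer cells of a type and less RNA per cell cannot be told apart.

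A few carriers made up most of the family's transcripts. The members ranged from 0.590 to 314 TPM in the sevoflurane control and from 1.02 to 720.0 TPM in the desflurane 6 h library. *Slc25a5*, which exchanges ADP for ATP, was the highest member in 3 libraries. In the desflurane 6 h library *Slc25a47*, a liver-enriched member whose substrate is unclear, was the highest. The first 3 members took between 47.1% and 56.8% of the summed TPM of the family and the first 5 between 65.1% and 73.4%. The median member was at 9.11, 15.0, 10.2 and 14.7 TPM. The 32 members summed to 1259 and 1739.95 TPM with sevoflurane, a ratio of 1.38, and to 1359.99 and 2447 TPM with desflurane, a ratio of 1.80. This was 0.164%, 0.223%, 0.172% and 0.317% of the TPM of all named genes. Of the 8 symbols below the limit, *Slc25a34* came closest with a mean TPM of 0.711, and *Slc25a41* and *Slc25a53* were listed at 0 in every library. The member just above the limit was *Slc25a14*, with a mean TPM of 1.21.

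**Figure D1:**
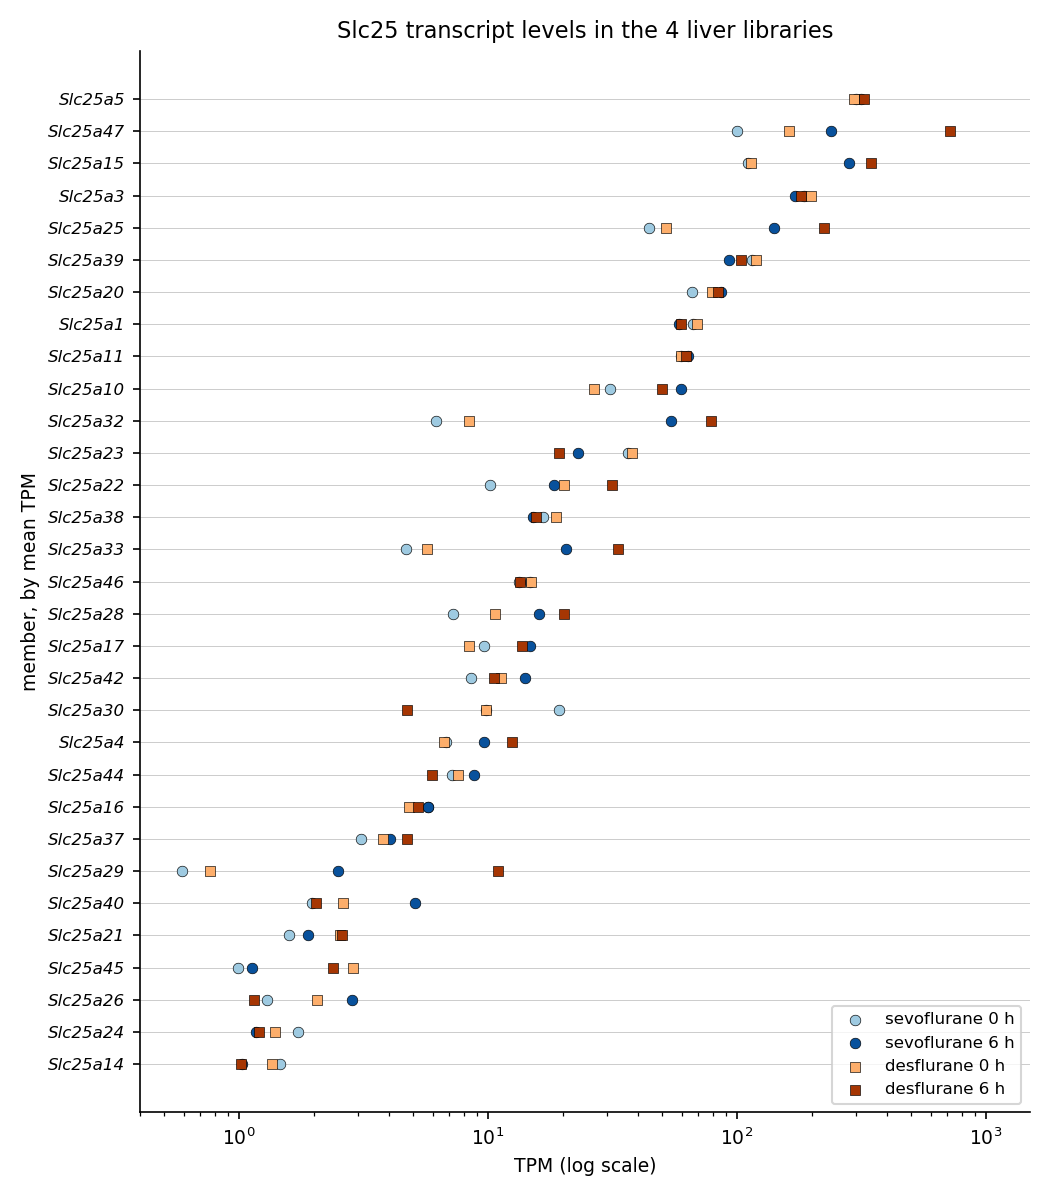
TPM of 31 of the 32 *Slc25* members (rows, in the order of their mean) on a log axis, with 1 point for each library. The 0 h and 6 h points lie close together for *Slc25a5*, *Slc25a3* and *Slc25a11* and far apart for *Slc25a47*, *Slc25a15*, *Slc25a25*, *Slc25a32*, *Slc25a33* and *Slc25a29*.

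The first comparison was 6 h against 0 h within each agent. With sevoflurane, 9 of 32 members were higher at 6 h and 0 were lower. With desflurane, 6 were higher and 1 was lower. A gene was counted as higher or lower (called) when 1 library had a TPM above 2 that was over 2 times the value in the other, which is a rule of size and not a test. Among all 9201 genes the same rule called 4.52% higher with sevoflurane and 3.31% lower. With desflurane it called 3.71% higher and 5.05% lower. The members' share called higher was thus above that of all genes with both agents, at 28.1% and 18.8%. The members called lower, 0 and 1 of 32, are too few to set against the shares of all genes. *Slc25a29*, counted in both higher shares, was below 1 TPM in both controls and reached the mean of 1 through its 6 h values.

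The median member was slightly above the median gene with both agents. On the log2(TPM + 1) scale, which understates the change of low genes, the median difference of the members was 0.29 with sevoflurane, against 0.05 over all genes, and 0.04 with desflurane, against -0.10 over all genes. Of the 32 members, 22 had a positive difference with sevoflurane and 17 with desflurane. Over all 9201 genes, 5110 had a positive difference with sevoflurane and 3521 with desflurane. Scaling each library by the median of its ratios moved the share of higher genes among all calls with desflurane from 42.3% to 53.9%, and 9 members were then called higher with desflurane and 0 lower. Under this scaling the calls with sevoflurane were 9 higher and 1 lower.

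Whether a gene changed in common under the agents was tested with limma, blocked by agent, on the 8024 genes averaging 2 TPM or more. The test treats the agents as repeats of each other and has 1 residual degree of freedom, so that its p-values rest largely on the spread borrowed from other genes. That residual is how far the changes with the agents differ from each other. It does not measure a spread between animals or libraries of the same group. Of the 27 members tested, 9 rose and 2 fell at an adjusted p below 0.05, against 4.69% of all tested genes that rose and 3.94% that fell. The 9 include *Slc25a29*, which entered the test only through its desflurane 6 h value. They also include *Slc25a22*, whose rows were listed differently in the controls and the 6 h libraries (both are described below). At an unadjusted p below 0.05 there were 13 of 27 members, of which 11 were higher at 6 h, and 1599 of all 8024 genes. Without the agent as a block, 7 members passed the adjusted threshold in place of 11.

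The members called higher with both agents belong to 4 of the 5 substrate groups. They were the 6 carriers *Slc25a32*, *Slc25a33*, *Slc25a29*, *Slc25a15*, *Slc25a25* and *Slc25a47*. Another 3 members (*Slc25a28*, *Slc25a40* and *Slc25a26*) were called higher with sevoflurane and not with desflurane, and *Slc25a30* was called lower with desflurane and not with sevoflurane. Closest to the limit on the inside were *Slc25a30* with desflurane, where 0 h was 2.08 times 6 h, and *Slc25a26* with sevoflurane at a ratio of 2.19. Closest on the outside were *Slc25a30* with sevoflurane and *Slc25a23* with desflurane, in both of which 0 h was 1.96 times 6 h.

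**Figure D2:**
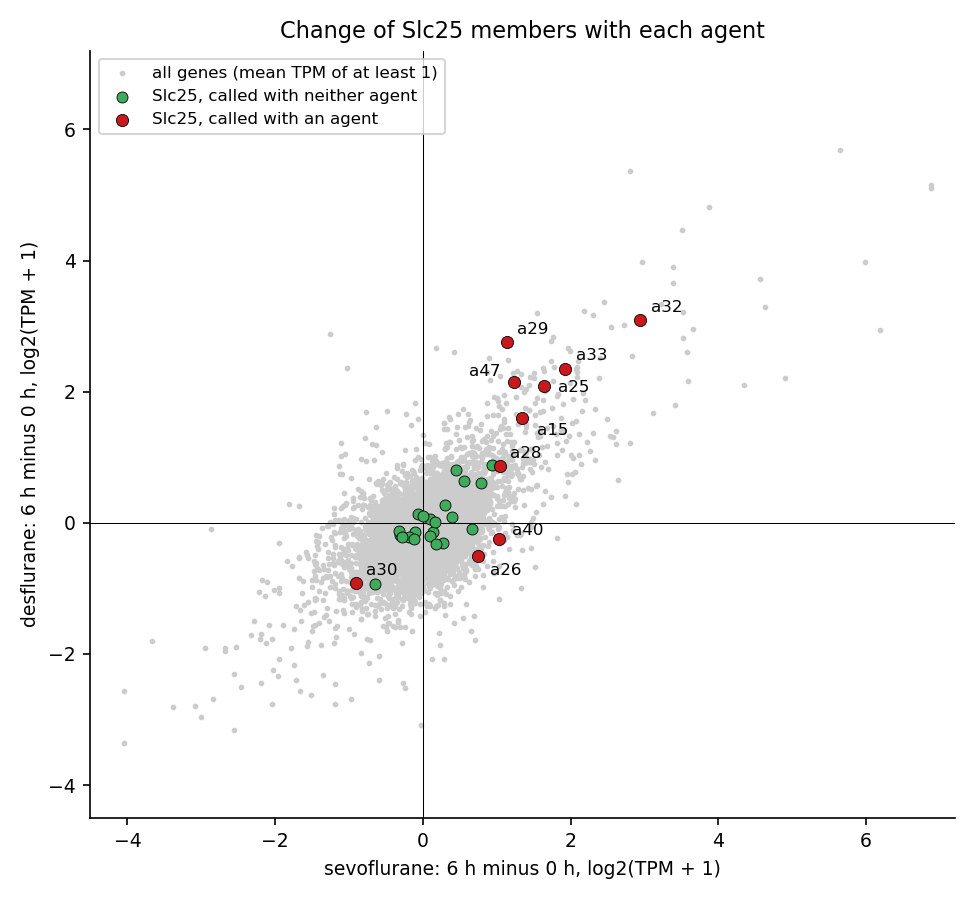
Difference between 6 h and 0 h on the log2(TPM + 1) scale with sevoflurane (x axis) and desflurane (y axis), for all 9201 genes (grey) and for the 32 *Slc25* members, with members called with an agent in red and labelled by the end of their symbol. The 6 members called higher with both agents lie at the upper right, *Slc25a40* and *Slc25a26* lie right of 0 on one axis and below 0 on the other, and *Slc25a30* lies at the lower left.

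Among carriers of vitamins, cofactors, nucleotides and iron, 5 of 8 were called higher with sevoflurane and 2 of 8 with desflurane. *Slc25a32*, the carrier that brings folate into mitochondria, had the largest ratio of the family with sevoflurane. Its TPM was 6.21 and 54.5 with sevoflurane and 8.36 and 78.7 with desflurane. Both 6 h libraries were far above both controls, at ratios of 8.78 and 9.41. The common change was 3.02 on the log2 scale (SE 0.17, limma adjusted p = 3.88e-07), the lowest adjusted p of the family. The gene lies on chromosome 7, 77987207 to 78004975, on the minus strand (all gene coordinates are those of the deposited tables, build rn6 by the submitters' processing notes).

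*Slc25a33*, which carries pyrimidine nucleotides into mitochondria, followed the same course at a lower level. Its TPM was 4.68 and 20.6 with sevoflurane, a ratio of 4.40, and 5.69 and 33.2 with desflurane, a ratio of 5.82. The controls lay close together and below both 6 h libraries. In the common change it rose by 2.14 (SE 0.21, limma adjusted p = 3.02e-05). The gene lies on chromosome 5, 166701463 to 166726794, on the minus strand.

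Of the pair of iron carriers, 1 passed the limma test. *Slc25a28* (mitoferrin 2), the iron carrier of most tissues, was at 7.23, 16.0, 10.7 and 20.2 TPM, with ratios of 2.21 and 1.90, and only the first was past the limit. Its common change was 0.95 (SE 0.20, limma adjusted p = 0.00827). *Slc25a37* (mitoferrin 1), the iron carrier of red cell precursors, was at 3.08, 4.03, 3.78 and 4.74 TPM and passed neither rule (limma adjusted p = 0.583). The red blood cell markers given above had ratios of 2.64 with sevoflurane and 1.88 with desflurane, and their part in the values of *Slc25a37*, at ratios of 1.31 and 1.25, was not tested.

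*Slc25a39*, which takes up glutathione, was the highest of this group at 115.2, 93.1, 118.8 and 103.8 TPM, slightly lower at 6 h with both agents (limma adjusted p = 0.339). Its close relative *Slc25a40* was at 1.96, 5.07, 2.62 and 2.03 TPM. It was called higher with sevoflurane, at a ratio of 2.59, and was slightly lower with desflurane, at 0.777. *Slc25a26*, the carrier of S-adenosylmethionine, had the same pattern at 1.29, 2.83, 2.06 and 1.15 TPM, with ratios of 2.19 and 0.559. The mean coverage of these low genes was between 3.05 and 17.4 reads per base. Both calls were lost when the sevoflurane 6 h library was set against the desflurane control, where the ratios were 1.94 and 1.37.

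Among amino acid and carnitine carriers, 2 of 6 were called higher with each agent, and the summed TPM of the group was 1.96 and 2.05 times the control. Most of this came from *Slc25a15*, which exchanges cytosolic ornithine for mitochondrial citrulline in the urea cycle. It was at 110.4 and 282 TPM with sevoflurane, a ratio of 2.55, and at 113.6 and 345 TPM with desflurane, a ratio of 3.04. The controls were close to each other and far below both 6 h libraries. It rose by 1.47 in the common change (SE 0.13, limma adjusted p = 1.39e-05). The gene lies on chromosome 16, 74534070 to 74552667, on the plus strand.

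*Slc25a29*, a carrier of basic amino acids such as lysine and arginine, was among the lowest members in both controls and had the largest ratio of the family with desflurane. Its TPM was 0.590 and 2.49 with sevoflurane, a ratio of 4.23, and 0.768 and 10.9 with desflurane, a ratio of 14.2. The mean coverage was 1.39, 8.53, 2.65 and 39.8 reads per base, so the denominators of these ratios rest on few reads. The sevoflurane call was lost when a TPM above 5 was required. It rose by 1.95 over both agents (SE 0.34, limma adjusted p = 0.00267), with the largest error among the members that passed the test. It reached the mean TPM of 2 needed for the test only through its high value in the desflurane 6 h library, so the test is not independent of the change.

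*Slc25a20*, which exchanges acylcarnitines for carnitine in fatty acid oxidation, was at 65.8, 86.7, 79.4 and 84.3 TPM and did not pass the test (limma adjusted p = 0.415). *Slc25a38*, linked to glycine uptake for heme synthesis, and *Slc25a44*, a carrier of branched-chain amino acids, stayed within 15.2 to 18.7 and 5.96 to 8.81 TPM. *Slc25a22*, a glutamate carrier, was listed differently in the tables of the 2 times. In both controls it had 2 rows on chromosome 1 with nearly equal TPM (5.09 and 5.13 with sevoflurane, 10.03 and 10.19 with desflurane), and in both 6 h libraries it had a single row spanning both places (18.4 and 31.4 TPM). Rows were summed by the rule, which gave ratios of 1.80 and 1.55 and a common change of 0.70 (SE 0.18, limma adjusted p = 0.0297). With the largest row in place of the sum the ratios were 3.59 and 3.08, past the limit with both agents. Those ratios set 1 of the 2 places at 0 h against a row spanning both at 6 h, whereas the sum covers both places at each time. The values do not say how the single row counts reads of the 2 places, so the size of its change stays uncertain. It was the only one of the 32 members whose number of rows differed between libraries, as did 37 of the 9201 genes.

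Among adenine nucleotide and phosphate carriers, 1 of 9 was called higher with each agent. This was *Slc25a25*, which exchanges ATP-magnesium for phosphate and is switched by calcium. It was at 44.5 and 140.4 TPM with sevoflurane, a ratio of 3.15, and at 52.1 and 225 TPM with desflurane, a ratio of 4.31. Both 6 h values lay above both controls. The common change was 1.86 (SE 0.15, limma adjusted p = 6.86e-06). The gene lies on chromosome 3, 11442396 to 11452529, on the minus strand.

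The paralog *Slc25a23*, a calcium-regulated carrier of the same kind, went the other way. It was at 36.7 and 23.1 TPM with sevoflurane and at 38.0 and 19.4 TPM with desflurane, ratios of 0.629 and 0.509 that stayed short of the rule of size. It fell by 0.79 on the log2 scale in the common change (SE 0.17, limma adjusted p = 0.0104). As a result *Slc25a25* was 1.21 and 1.37 times *Slc25a23* in the controls and 6.09 and 11.6 times *Slc25a23* at 6 h, in levels per length. The other calcium-regulated paralog, *Slc25a24*, stayed between 1.18 and 1.73 TPM.

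The abundant carriers of this group differed little. *Slc25a5*, the main ADP and ATP exchanger of liver, was at 314, 299, 296 and 324 TPM (limma adjusted p = 0.938). *Slc25a3*, which brings in the phosphate for ATP synthesis, was at 185, 172, 198 and 180.2 TPM (limma adjusted p = 0.673). *Slc25a4*, the ADP and ATP exchanger typical of muscle, was at 6.79, 9.60, 6.69 and 12.4 TPM and did not pass the test (limma adjusted p = 0.112), and neither did *Slc25a17*, a peroxisomal carrier, at 9.67, 14.7, 8.43 and 13.7 TPM (limma adjusted p = 0.0964). *Slc25a42*, a carrier of coenzyme A, ranged from 8.56 to 14.1 TPM, and *Slc25a16* from 4.81 to 5.76 TPM.

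Among di- and tricarboxylate and uncoupling-related carriers, none of the 6 was called higher and 1 was called lower, with desflurane. *Slc25a1*, which exports citrate for fatty acid synthesis, was at 66.7, 58.3, 69.1 and 59.5 TPM (limma adjusted p = 0.509). *Slc25a11*, which exchanges oxoglutarate for malate in the malate-aspartate shuttle, was level at 59.6, 63.7, 59.6 and 62.4 TPM (limma adjusted p = 0.836). *Slc25a10*, which exchanges malate or succinate for phosphate, was at 30.8, 59.8, 26.6 and 49.8 TPM. Its ratios of 1.94 and 1.87 missed the rule of size, but it rose by 0.91 in the common change (SE 0.15, limma adjusted p = 0.00244).

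*Slc25a30*, related to the uncoupling proteins, was at 19.2 and 9.80 TPM with sevoflurane and at 9.82 and 4.71 TPM with desflurane. It was lower at 6 h with both agents, at ratios of 0.509 and 0.480, and its common change fell by 0.91 (SE 0.20, limma adjusted p = 0.0136). The controls differed from each other by as much, so that the desflurane control lay at the level of the sevoflurane 6 h library. When libraries were scaled by the median of their ratios, the desflurane call was lost, and *Slc25a30* was called lower with sevoflurane and lower in the desflurane control than in that of sevoflurane. *Slc25a21*, a carrier of oxodicarboxylates, and *Slc25a14*, another relative of the uncoupling proteins, stayed between 1.59 and 2.59 and between 1.02 and 1.46 TPM.

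Among the 3 members of unclear substrate, *Slc25a47* was called higher with both agents. It was at 100.4 and 238 TPM with sevoflurane, a ratio of 2.38, and at 162 and 720.0 TPM with desflurane, a ratio of 4.45. The desflurane 6 h library stood well above the others, and the controls themselves differed 1.61-fold. The sevoflurane 6 h library was 1.47 times the desflurane control, short of the limit. Over both agents it rose by 1.69 (SE 0.18, limma adjusted p = 5.66e-05). *Slc25a46*, an outer membrane member involved in mitochondrial shape, was level at 13.4, 14.8, 14.9 and 13.5 TPM (limma adjusted p = 0.999). *Slc25a45* was at 0.989, 1.13, 2.88 and 2.38 TPM, so that both desflurane libraries lay above both sevoflurane libraries. The ratios of 6 h to 0 h were 1.14 and 0.826. Its mean coverage was 2.33, 3.87, 9.94 and 8.66 reads per base. With 1 library in each group, the agent cannot be told apart from other differences between libraries.

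**Figure D3:**
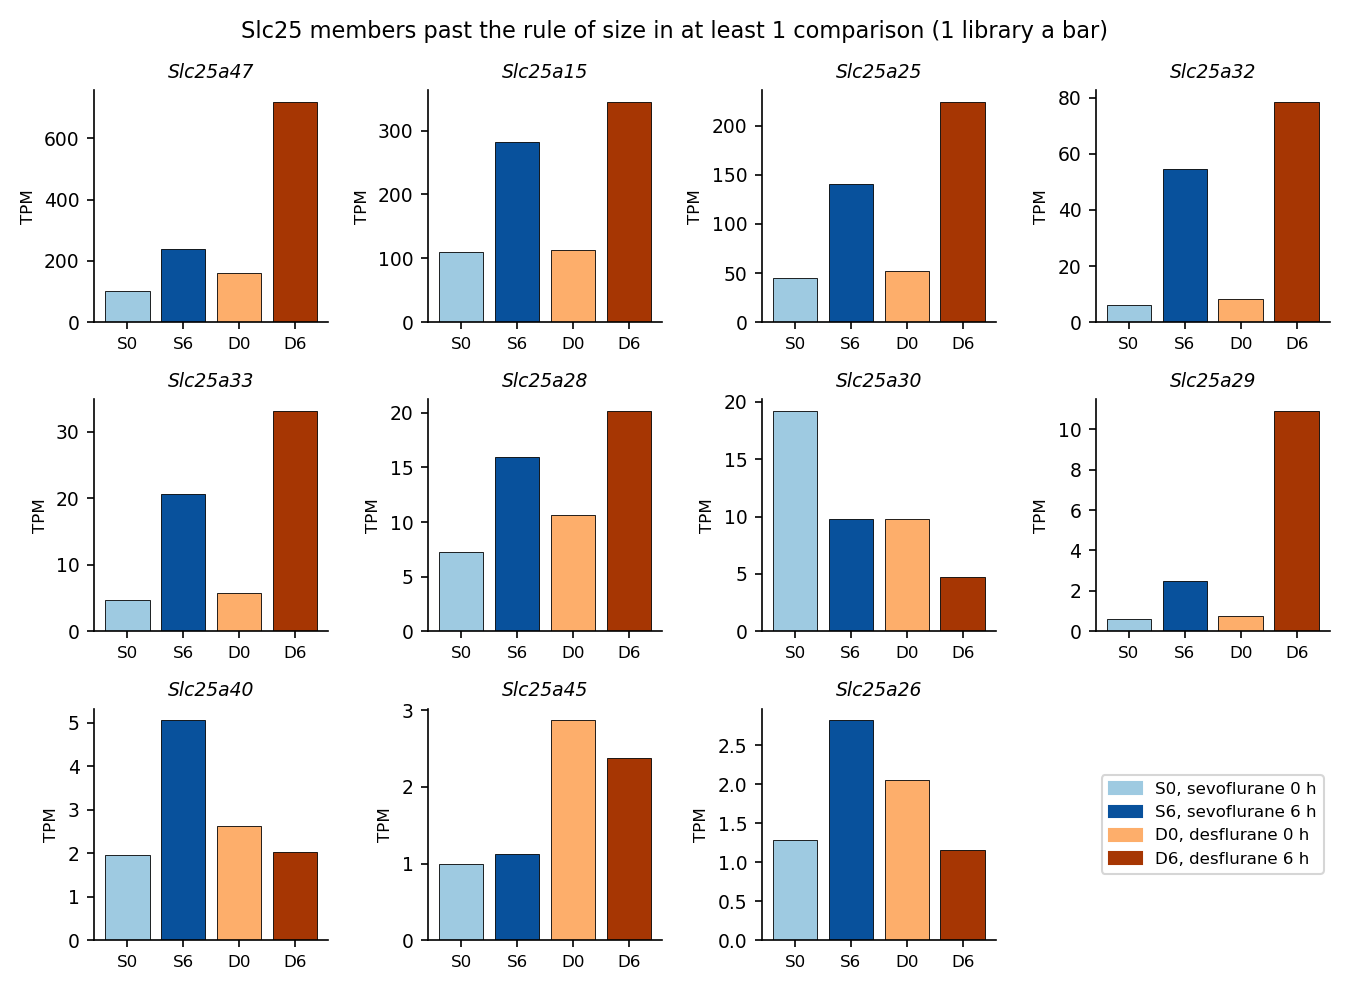
TPM (linear axis from 0) of the 11 *Slc25* members past the rule of size in at least 1 of the 4 comparisons, with 1 bar for each library (S, sevoflurane; D, desflurane; 0 and 6, hours). In the panels of *Slc25a15*, *Slc25a25*, *Slc25a32*, *Slc25a33*, *Slc25a29* and *Slc25a47* both 6 h bars stand above both 0 h bars, in that of *Slc25a30* the 6 h bar is the lower of each pair, and in that of *Slc25a45* the desflurane bars are the higher ones.

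*Slc25a47* and *Slc25a29* are neighbours in the genome. *Slc25a29* lies on chromosome 6, 132736974 to 132747762, on the minus strand, and *Slc25a47* on the same chromosome, 132762306 to 132767940, on the plus strand. They point away from each other with 14543 bp and no other named gene between them. No other pair of the 32 members lay within 1 Mb of each other. The flanking genes *Yy1* (19.6 to 26.4 TPM), *Wars1* (4.96 to 7.54 TPM) and *Wdr25* (1.56 to 2.28 TPM) were called in none of the 4 comparisons. Both carriers were higher at 6 h with each agent and higher with desflurane than with sevoflurane at 6 h, although *Slc25a47* was expressed at a level per length far above that of *Slc25a29* in every library.

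The makeup of the family shifted with these changes. Adenine nucleotide and phosphate carriers took 48.7% of the summed *Slc25* TPM in the sevoflurane control and 39.1% at 6 h, and 45.3% and 32.4% with desflurane, although their own sum was not lower at 6 h (ratios of 1.11 and 1.28). The di- and tricarboxylate and uncoupling-related carriers kept nearly the same sum (ratios of 1.08 and 1.07). Amino acid and carnitine carriers went from 16.7% to 23.8% and from 17.7% to 20.2% of the family. Members of unclear substrate, which here means mostly *Slc25a47*, took 9.11% and 14.6% in the sevoflurane libraries and 13.2% and 30.1% in those of desflurane. The vitamin, cofactor, nucleotide and iron carriers held between 10.03% and 11.4% in every library, with summed ratios of 1.40 and 1.59.

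**Figure D4:**
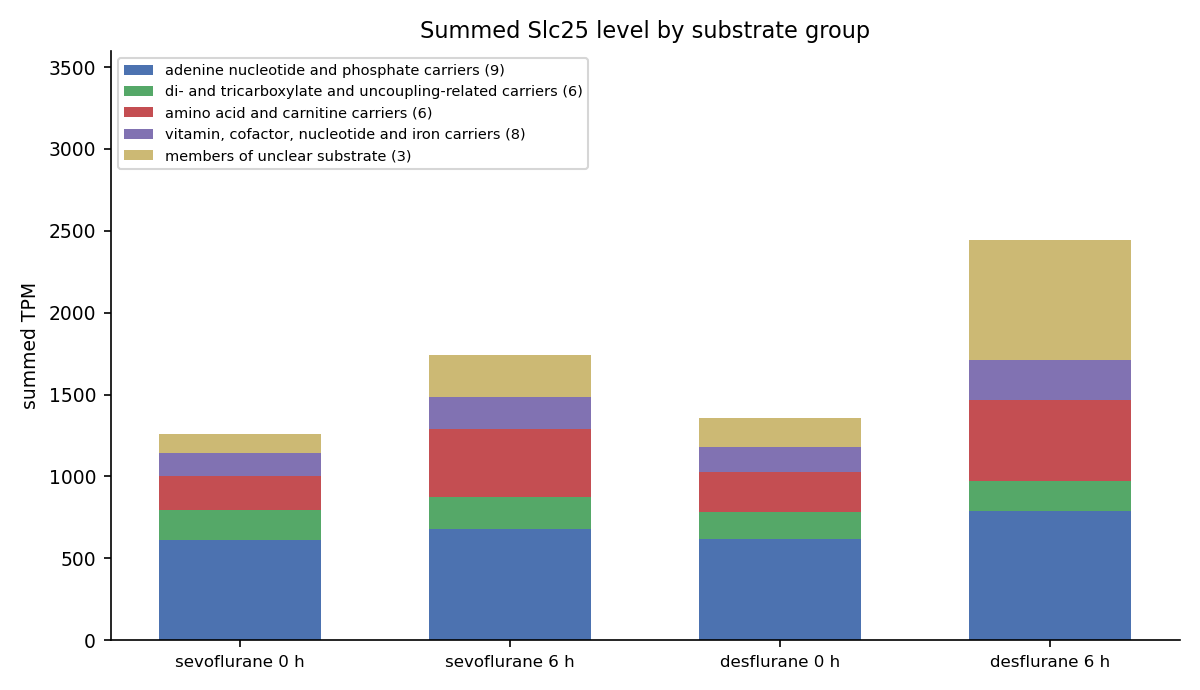
Summed TPM of the 32 *Slc25* members in each library, stacked by substrate group (number of members in brackets). With sevoflurane the total goes from 1259 to 1739.95 TPM, with desflurane it goes from 1359.99 to 2447 TPM, and the segment that gains the most TPM is that of amino acid and carnitine carriers with sevoflurane and that of members of unclear substrate, mostly *Slc25a47*, with desflurane.

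The changes with the agents, which share no library, were then set side by side. Of the 32 members, 15 were higher at 6 h with both agents, 8 were lower with both and 9 had opposite signs. Over all 9201 genes the counts were 2610, 3180 and 3411. The sign was thus shared by 71.9% of the members and by 62.9% of all genes. Across the members the log2 differences with one agent and the other were correlated at r = 0.86 (Pearson) and rho = 0.72 (Spearman), and across all 9201 genes at r = 0.63 and rho = 0.46. These describe genes within the same 4 libraries, and genes are not independent replicates.

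The remaining comparisons asked how the agents differed at the same time. Between the controls 1 of 32 members was called, *Slc25a45*, which was 2.91 times higher with desflurane. Over all genes 1.76% were called higher and 0.696% lower with desflurane at 0 h, so that 71.7% of the calls were higher, against 54.6% after the scaling. *Slc25a22* (1.98 times) and *Slc25a30* (0.510 times) lay just short of the limit. The median difference of the members was 0.15, against 0.11 over all genes.

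At 6 h, 3 members were called higher with desflurane than with sevoflurane and 3 lower, against 1.96% and 1.58% of all genes. *Slc25a29* was 4.38 times, *Slc25a47* 3.02 times and *Slc25a45* 2.11 times higher with desflurane. *Slc25a40* was at 0.401 times, *Slc25a26* at 0.407 times and *Slc25a30* at 0.481 times the sevoflurane level. Of these 6, *Slc25a45* and *Slc25a30* differed by about as much between the controls, at 2.91 and 0.510 times. These comparisons share libraries with those of 6 h against 0 h and are not independent of them. The median difference was 0.05 for the members and -0.03 over all genes.

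Genes that work beside the carriers were described by the same rule. Of 20 enzymes that share substrates with the carriers, 6 (30%) were called higher with sevoflurane and 5 (25%) with desflurane. Among all 9201 genes these shares were 4.52% and 3.71%. The list was chosen with earlier results of these data known, so its shares are not those of an independent sample. With either agent 0 of the 20 were called lower, and 20 genes are too few to set this against all genes. Of the 5 urea cycle enzymes listed, which work beside *Slc25a15*, *Asl* and *Arg1* were called higher with both agents, *Ass1* with desflurane alone, and *Cps1* and *Otc* with neither. *Asl* (argininosuccinate lyase) was at 101.0, 379.7, 130.2 and 459 TPM, *Arg1* (arginase, which releases ornithine) at 708, 2104, 886 and 1822 TPM, and *Ass1* (argininosuccinate synthase) at 739, 1346, 580.5 and 1457 TPM. *Cps1* (carbamoyl phosphate synthetase) was at 1072, 1677, 909 and 1298 TPM, at ratios of 1.56 and 1.43.

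The mitochondrial enzyme that uses the imported ornithine, *Otc*, was at 414, 318, 339 and 276 TPM, lower at 6 h with both agents and not called. *Cpt1a*, which makes the acylcarnitines that *Slc25a20* carries, was at 27.9, 249.5, 77.6 and 251 TPM. *Got1*, the cytosolic transaminase of the malate-aspartate shuttle, was at 18.5, 203, 15.5 and 207 TPM, whereas its mitochondrial partner *Got2* was at 214, 187, 195 and 195 TPM. *Pck1*, the enzyme that commits oxaloacetate to gluconeogenesis, was at 527, 1497, 942 and 1762 TPM, and *Gpd2*, of the glycerol phosphate shuttle, at 2.09, 5.12, 5.31 and 8.19 TPM, both called with sevoflurane alone. The controls of *Cpt1a* and *Gpd2* differed too, and both genes were called higher in the desflurane control than in that of sevoflurane. For *Gpd2* the desflurane control was above the sevoflurane 6 h library.

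Few genes of carrier import or of other mitochondrial transport were called. Of 13 genes of the machinery that imports carriers, 1 was called higher with sevoflurane, *Timm8a1* (13.5, 30.1, 16.0 and 28.1 TPM), and 0 with desflurane. The median log2 difference of these 13 was 0.23 with sevoflurane and 0.06 with desflurane, near the 0.29 and 0.04 of the *Slc25* members. Lists of this size are too short to set their counts against the shares of all genes. Of 13 other transporters of the mitochondrial membranes (porins, pyruvate carriers, the calcium uniporter, sideroflexins and transporters of the ABC class), 0 were called with either agent. Of 3 family proteins with other symbols (*Ucp2*, *Mtch1* and *Mtch2*), 0 were called. The uncoupling proteins *Ucp1* and *Ucp3* were below a mean TPM of 1.

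Promoter sequences were examined because 6 members in different substrate groups were called higher with both agents. The sequences come from RefSeq (rat assembly GRCr8, unlike the build of the tables), and 26 of the 32 members had an entry, including 5 of those 6. The 250 bases before the annotated start were searched on both strands for the E-box (CACGTG), the D-box (TTATGNAA), the core of the cAMP response element (TGACG), single sites of the glucocorticoid receptor (TGTTCT) and of nuclear receptors (AGGTCA), and the full cAMP response element (TGACGTCA). The full element contains the core on both strands and was added after the sequences had been seen. A match is a stretch of letters and not a shown binding site.

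The sequences below belong to the 3 members with an entry whose ratio was highest when the smaller of the ratios with each agent is taken. They run 5′ to 3′ on the gene's strand and end at the base before the start, and capitals mark matches to the letters searched. *Slc25a33* is from chr5:165502974-165503223, *Slc25a29* from chr6:133517198-133517447 and *Slc25a25* from chr3:36116582-36116831, all on the minus strand of GRCr8.
Slc25a33: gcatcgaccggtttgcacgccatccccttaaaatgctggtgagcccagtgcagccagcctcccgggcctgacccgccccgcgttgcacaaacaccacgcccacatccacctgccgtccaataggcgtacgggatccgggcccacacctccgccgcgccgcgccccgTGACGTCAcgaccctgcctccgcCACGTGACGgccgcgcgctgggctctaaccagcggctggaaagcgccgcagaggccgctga
Slc25a29: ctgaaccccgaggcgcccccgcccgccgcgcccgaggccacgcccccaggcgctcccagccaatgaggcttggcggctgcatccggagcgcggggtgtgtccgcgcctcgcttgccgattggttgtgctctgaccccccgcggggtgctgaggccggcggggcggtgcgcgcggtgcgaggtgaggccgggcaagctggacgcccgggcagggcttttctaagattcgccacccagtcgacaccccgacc
Slc25a25: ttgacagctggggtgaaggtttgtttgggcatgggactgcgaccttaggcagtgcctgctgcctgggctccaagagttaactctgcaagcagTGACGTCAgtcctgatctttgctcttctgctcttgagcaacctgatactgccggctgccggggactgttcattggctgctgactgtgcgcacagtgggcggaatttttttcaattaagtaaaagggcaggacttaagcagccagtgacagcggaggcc

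The promoter of *Slc25a33* holds the full cAMP response element at bases -84 to -77, counted back from the start, an E-box at -61 to -56 and a further core at -57 to -53 that overlaps the E-box by 2 bases. That of *Slc25a25* holds the full element at -158 to -151. The window of *Slc25a29* holds none of the letters searched and is rich in G and C (74.8%, against 70% for *Slc25a33*, 54.4% for *Slc25a25* and a median of 51.2% over all 33469 promoters in the table). *Slc25a15* holds a D-box and *Slc25a47* a single nuclear receptor site.

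Over the 26 members the full cAMP response element was present in 2 promoters, those of *Slc25a25* and *Slc25a33*, and in 1.59% of all promoters. The core was present in 8 of 26, against 18.2% of all promoters. The E-box and the D-box were present in 1 each, against 5.59% and 3.28%, and the single sites of the glucocorticoid receptor and of nuclear receptors in 3 each, against 17.5% and 14.1%. The core was also found in members that differed little between 0 h and 6 h, such as *Slc25a3* and *Slc25a1*. The 26 promoters were richer in G and C than all promoters (median of 58% against 51.2%). The part of this in the counts of matches was not tested.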

How the data were processed

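RNA sequencing of 4 rat liver libraries was analysed from the abundance table deposited for each library. Per the labels, liver pieces were kept in RNAlater, an RNeasy Midi kit was used for RNA, and libraries were made with a stranded total RNA kit. The submitters' processing notes name HISAT2, SAMtools, StringTie and the build rn6, without versions or roles. The authors deposited TPM, FPKM and coverage for named genes and for assembled loci. The deposited TPM sum to a full TPM total over the assembled loci, and over named genes to 0.766 to 0.789 of that total, which counts the same reads again. The TPM column as deposited by the authors was therefore treated as a score, with single values read as TPM. The deposited FPKM were used with the deposited coverage (mean reads per base) to derive the aligned bases, and 2 TPM stood for a coverage between 4.72 and 7.28. No read counts are given, so no counting interval could be computed.

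Rows of a symbol were summed after leaving out those of at most 200 bp. Calls required more than 2 TPM in the higher library and a ratio above 2, and the background is the 9201 genes averaging 1 TPM or more. Log2 differences used a pseudocount of 1. The common change was tested with limma 3.58.1 in R 4.3.3 (two-sided, eBayes with a trend, agent as a block, Benjamini-Hochberg adjustment over the 8024 genes that averaged 2 TPM or more, 1 residual and 10.9 prior degrees of freedom). Both steps were tested on made-up values with known answers. Other work used Python 3.11.15 with pandas 2.3.3.

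The members and the gene lists were chosen with earlier results of these data known. Values in every library are given for members called in any comparison and for the 10 members with the highest mean TPM, the others are given by range or with a test result, and of other lists the members called with either agent are named. *Slc25a4*, *Slc25a17*, *Slc25a22*, *Slc25a23*, *Slc25a37*, *Slc25a46*, *Otc*, *Cps1* and *Got2* are given in full outside this rule and were added after their values were seen. Alternatives were another ratio, minimum TPM, scaling, row choice, filter, control, pseudocount and no block. The use of the assembled locus in place of the named gene and the search for the full cAMP response element were added after the data were seen. All 40 symbols were found in a RefSeq gene table of GRCr8, used for names only. The values of 1 member are not reported here, although it is counted in the totals.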

Additional observations from a re-analysis of the deposited data

Results flagged for a closer look

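*Slc25a26* and *Slc25a40* were called higher at 6 h with sevoflurane and had the opposite sign with desflurane. The change with desflurane minus the change with sevoflurane, on the log2(TPM + 1) scale, was -1.25 for *Slc25a26* and -1.29 for *Slc25a40*. Each change comes from 1 library against 1 library, and the difference between the agents was not tested. Both genes are low, with at most 2.83 TPM for *Slc25a26* and 5.07 TPM for *Slc25a40*.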

How the results depend on the processing

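The rule of size set the counts. With a ratio above 1.5 in place of 2, 15 members were called with sevoflurane (9 in the report), 14 with desflurane (7) and 7 between the controls (1). With a ratio above 3, 4 members were called with sevoflurane, 0 between the controls and 2 between the 6 h libraries (6). A minimum TPM of 5 left 0 calls between the controls. All genes were not counted at these ratios or at this minimum, so these counts cannot be set against a share of all genes. Scaling each library by the median of its ratios gave 2 calls between the controls and removed a shift of the median gene of 0.11 between the controls and of -0.10 with desflurane. It moved the share of higher calls over all genes from 42.3% to 53.9% with desflurane and from 71.7% to 54.6% between the controls, and the members called higher with desflurane from 6 to 9. When each 6 h library was set against the other agent's control, the median log2 difference of the members was 0.11 with sevoflurane (0.29 in the report) and 0.27 with desflurane (0.04), and the sevoflurane calls of *Slc25a26*, *Slc25a28*, *Slc25a40* and *Slc25a47* were lost.

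With the assembled locus on the same strand in place of the named gene, the desflurane median became -0.051, which is the other side of 0, and 2 members were called between the controls. In the comparison of sevoflurane 6 h with 0 h, 7 calls were shared, *Slc25a28* and *Slc25a47* (ratio 1.92) were lost, *Slc25a22* was called higher, and *Slc25a16*, *Slc25a23* and *Slc25a30* were called lower. With desflurane all 7 calls were shared, with *Slc25a22* called higher and *Slc25a26* lower in addition. The assembled value of *Slc25a22* was summed over the loci found at each of its rows in the sevoflurane control. A locus spanning both places would be added at each. At 6 h its assembled TPM was 33.2 and 64.2, against 18.4 and 31.4 for the named row. Both calls of *Slc25a22* may therefore come from this sum. Between the 6 h libraries the calls of *Slc25a30* and *Slc25a45* were lost, which left 4 of 6. The causes were not tested.

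The 3 sevoflurane calls of *Slc25a25*, *Slc25a32* and *Slc25a33* and the 6 desflurane calls of *Slc25a15*, *Slc25a25*, *Slc25a29*, *Slc25a32*, *Slc25a33* and *Slc25a47* were kept under all 6 settings checked for single calls (a ratio above 3, the minimum TPM, the scaling, the other control, the largest row and the assembled locus). Of these settings, the largest row could not alter a call, since each member called with an agent had 1 row in every library. Without the agent as a block, limma called 7 members in place of 11, and it called 11 with a mean TPM of at least 1, a pseudocount of 0.1 or the scaling. Each member called with an agent kept the sign of that log2 difference under the scaling, the other control and the assembled locus. A pseudocount of 0.1 and the largest row could not change this sign, so they add nothing here. Low members such as *Slc25a29* in the controls rest on few reads per base, and the sevoflurane 0 h library is the shallowest.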

Other observations

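The loci that the authors' assembler built from the reads reached beyond the named row of some members. At *Slc25a25* the assembled locus extended 23617 bp and 23619 bp further 5′ than the named gene in the controls of sevoflurane and desflurane and 0 bp further in both 6 h libraries, while its TPM was close to that of the named gene in each library (44.9, 140.6, 52.5 and 225). At *Slc25a15* it began between 27520 and 27546 bp upstream of the named gene in all 4 libraries. At *Slc25a30* it reached 49063 bp further 5′ in the sevoflurane 6 h library and between 0 and 17 bp in the others. At *Slc25a47* it reached between 1359 and 2159 bp beyond the 3′ end of the named gene. An assembled locus lists its outer ends only, so the values do not say how many reads lie in the added stretch.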
